A study of Mus musculus with 6 samples.

Results

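The fatty acid elongases and desaturases described here are the 10 genes Elovl1, Elovl3, Elovl5, Elovl6, Scd1, Scd2, Scd3, Fads1, Fads2 and Fads3. Each was taken from the probe set whose platform annotation names that gene and no other, which gave 9 of the 10 genes, out of 22180 genes with a probe set of their own. The probe set for Scd2 also carries the name of a microRNA gene, so that no value was given to Scd2. Every one of the 9 genes had a single probe set.

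RNA came from iBACs, an immortalized line of brown adipogenic mouse cells that can be turned into brown adipocytes in culture. Cells with a stable lentiviral shRNA knock-down of Aspa (siAspa, n = 3 arrays) were set against cells that had received a non-targeting control construct (ntc, n = 3 arrays). Both lines were selected with G418, brought to confluence, induced with IBMX, dexamethasone, insulin, triiodothyronine and indomethacin, kept from then on in insulin and triiodothyronine, and harvested on day 7. A single shRNA construct was used, so that the loss of Aspa cannot be told apart from any other difference between the 2 transduced lines. The replicates were separate passages of these lines, and the p-values therefore rest on the variation from passage to passage. The values are log2 signals after RMA (background correction, quantile normalization and summary by probe set), and all tests are moderated tests from limma across all 41345 probe sets with Benjamini-Hochberg adjustment. The comparison shows how the relative mRNA signal of each enzyme differed between the 2 lines. Quantile normalization gives all arrays the same distribution, so that a shift common to all genes would not be seen. Aspa itself had signals of 7.02, 6.97 and 7.44 on the siAspa arrays, against 9.07, 8.81 and 8.59 on the ntc arrays (log2 fold change -1.68, adjusted p = 0.034 in limma, and between 0.084 and 0.171 with any array left out), so that the labels and the targeted gene point the same way.

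Elongases of the Elovl family carry out the condensing step that lengthens a fatty acyl-CoA at the endoplasmic reticulum, using malonyl-CoA as the donor of new carbon. A reductase, a dehydratase and an enoyl reductase complete each round. Desaturases then place cis bonds into the chain with electrons from cytochrome b5. The Scd enzymes act on saturated acyl-CoAs to give oleate and palmitoleate, and the Fads enzymes act on polyunsaturated chains. In brown fat Elovl3 is known as a gene induced by cold and Scd1 as an abundant lipogenic enzyme.

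None of the 9 genes passed the test in either direction, while 0.0726% of all probe sets were called lower and 0.116% were called higher. These shares depend on the fit, with 30 lower and 48 higher of 41345 probe sets here. A fit of the brighter probe sets only called 394 lower and 253 higher of 20672. With single-gene probe sets only 329 and 251 of 23521 were called, and with a robust variance prior 236 and 152 of 41345. In each of these 3 fits 1 of the 9 genes, Elovl6, was called lower, and with any array left out no more than 1 probe set was called in either direction. The differences were uneven. Elovl3, Scd3 and Elovl6 had log2 fold changes of -1.31, -0.86 and -0.52, Scd1, Fads2 and Fads3 lay between -0.19 and -0.18, and Elovl5, Fads1 and Elovl1 lay between -0.07 and 0.00. For 6 of the 9 genes all siAspa arrays had lower signals than all ntc arrays, which held for 8.86% of all probe sets and for 9.99% of the genes. On none did every siAspa array lie above, against 9.57% of all probe sets and 12.6% of the genes. Before adjustment, 4 of the 9 genes had a lower signal with p under 0.05 in limma (6.08% of all probe sets, 6.17% of the genes) and 0 had a higher one (5.54% and 6.87%). Of the 9 log2 fold changes 8 were negative, as were 48.8% of those of all probe sets and 45.5% of those of the genes. Their median was -0.18, beside 0.02 for all genes.

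**Figure D1:**
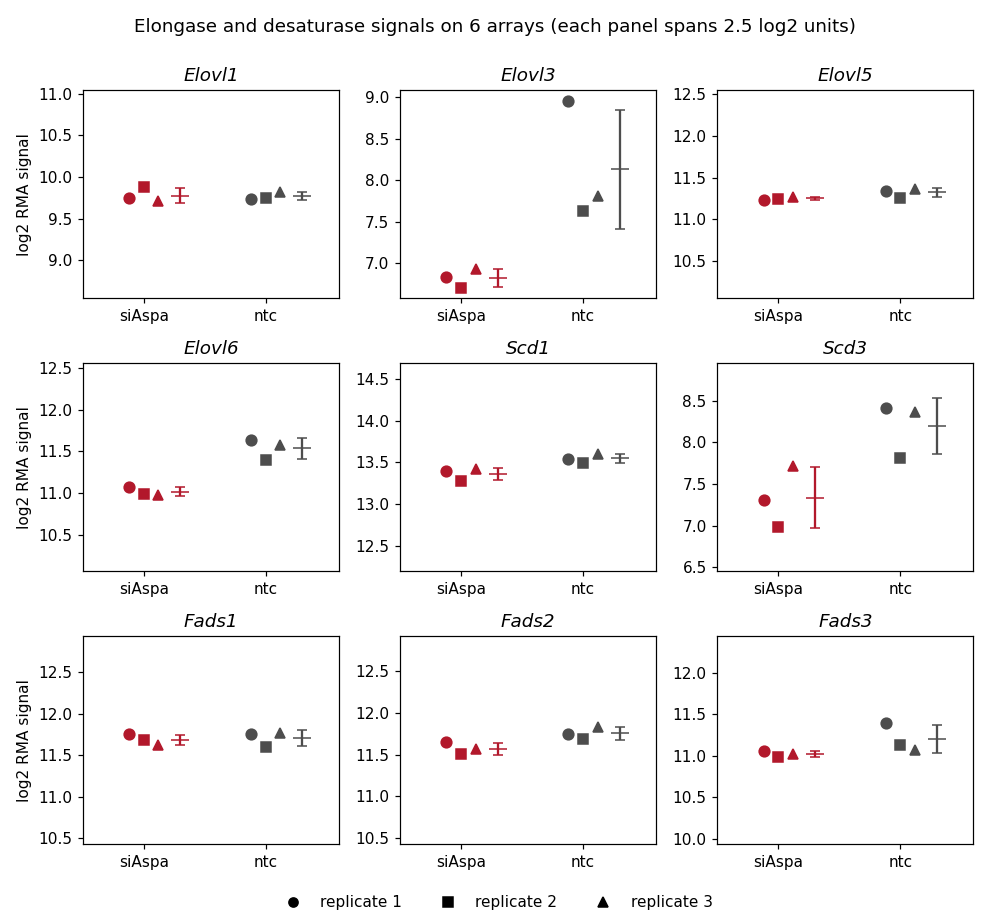
Log2 RMA signal (vertical axis, the same span of 2.5 units in every panel) of the 9 elongase and desaturase genes on the 3 siAspa arrays (red) and the 3 ntc arrays (grey), with the group mean and SD beside the points. The siAspa points of Elovl3, Elovl6 and Scd3 sit below the ntc points, by only 0.10 at the closest for Scd3, 1 ntc array of Elovl3 stands at 8.95 above the others, and the groups of Elovl1, Elovl5 and Fads1 overlap.

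Elovl6, which extends palmitate to stearate and so stands directly after fatty acid synthase, had a smaller difference than Elovl3 and Scd3 and the tightest groups of these 3. Its signals were 11.08, 10.99 and 10.98 on the siAspa arrays, against 11.64, 11.39 and 11.58 on the ntc arrays. The lowest ntc array was 0.32 above the highest siAspa array, and each group was tight. The means were 11.02 ± 0.05 in siAspa cells and 11.54 ± 0.13 in ntc cells (SD, n = 3 each). The log2 fold change was thus -0.52 (standard error 0.09, 95% interval -0.73 to -0.30). The siAspa arrays held 72.7%, 68.7% and 68.0% of the geometric mean of the ntc arrays. By its unadjusted p of 0.00076 Elovl6 ranked 306 among all probe sets, and its adjusted p was 0.102 in limma. This was the smallest adjusted p of the 9 genes. It passed when the variance prior was made robust and allowed to depend on signal (adjusted p = 0.027), in a fit of the brighter probe sets only (adjusted p = 0.028) and in a fit of single-gene probe sets only (adjusted p = 0.023). It did not pass with any array left out (adjusted p between 0.134 and 0.333).

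Elovl3, which makes very long saturated and monounsaturated chains and is a known brown fat gene, had the largest difference and the least even controls. The siAspa arrays read 6.84, 6.71 and 6.93, against 8.95, 7.63 and 7.81 on the ntc arrays. All siAspa arrays lay within 0.22 of each other, while the ntc arrays spanned 1.33, most of it from replicate 1. The means were 6.83 ± 0.11 in siAspa cells and 8.13 ± 0.72 in ntc cells (SD, n = 3 each), a 2.47-fold reduction with a 95% interval of 1.44 to 4.24 (adjusted p = 0.198 in limma). Without ntc replicate 1 the log2 fold change was -0.89 (adjusted p = 0.146), and without ntc replicate 2 it was -1.56 (adjusted p = 0.202). The siAspa arrays held 40.8%, 37.3% and 43.5% of the geometric mean of the controls, and the lower ntc arrays held 70.5% and 80.3% of it.

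Elovl5 and Elovl1 showed no difference that could be told from the spread of the arrays. Elovl5, which lengthens polyunsaturated chains, read 11.23, 11.25 and 11.27 on the siAspa arrays, against 11.34, 11.25 and 11.37 on the ntc arrays. The siAspa values lay within the lower part of the control range or just beneath it, and the 95% interval of the log2 fold change reached from -0.24 to 0.10 (adjusted p = 0.771 in limma). Elovl1, which serves the synthesis of very long chains for sphingolipids, read 9.75, 9.87 and 9.71 on the siAspa arrays, against 9.74, 9.75 and 9.82 on the ntc arrays. Its groups were interleaved, with a log2 fold change of 0.00 and an interval of -0.19 to 0.19 (adjusted p = 0.992). The lower bounds of these intervals correspond to a 1.18-fold reduction of Elovl5 and a 1.14-fold reduction of Elovl1.

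Promoter sequence was on hand in a RefSeq table for 6 of the 10 genes, Elovl1, Elovl5, Elovl6, Scd3, Fads2 and Fads3. The 250 bases before the start of Elovl6 and Scd3, which were lower on every siAspa array, are shown beside those of Elovl5, whose groups overlapped, so that the letters can be compared. They are examples and not a contrast of genes with and without overlap. They are given from 5′ to 3′ on the strand of the gene in build GRCm38.p6, and capitals mark any match on either strand to CCAAT, to the sterol regulatory element core TCACNCCAC, to the E-box CACGTG or to the nuclear receptor core AGGTCA. The motifs do not overlap each other in these windows, and Elovl1 has 2 windows in the table.
Elovl6, chr3:129532136-129532385, plus strand: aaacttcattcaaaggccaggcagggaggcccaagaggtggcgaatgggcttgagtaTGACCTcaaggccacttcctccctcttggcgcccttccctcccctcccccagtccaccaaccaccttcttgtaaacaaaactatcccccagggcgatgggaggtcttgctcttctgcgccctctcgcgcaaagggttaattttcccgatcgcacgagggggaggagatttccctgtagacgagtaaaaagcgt
Scd3, chr19:44203038-44203287, plus strand: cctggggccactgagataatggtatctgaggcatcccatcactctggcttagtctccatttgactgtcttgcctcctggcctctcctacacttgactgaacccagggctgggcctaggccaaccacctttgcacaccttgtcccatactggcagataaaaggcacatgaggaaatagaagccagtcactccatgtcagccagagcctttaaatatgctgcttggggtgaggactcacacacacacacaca
Elovl5, chr9:77917115-77917364, plus strand: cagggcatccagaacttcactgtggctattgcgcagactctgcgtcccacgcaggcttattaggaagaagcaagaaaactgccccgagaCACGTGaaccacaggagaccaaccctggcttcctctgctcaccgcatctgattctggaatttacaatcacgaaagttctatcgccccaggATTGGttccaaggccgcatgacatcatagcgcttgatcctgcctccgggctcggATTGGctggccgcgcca

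The Elovl6 window held 1 match, to AGGTCA, starting 193 bases before the gene, and the Scd3 window held none of the motifs. The Elovl5 window held 2 matches to CCAAT, 71 and 17 bases before the gene, and 1 to CACGTG at 161 bases. Among all 32851 windows of the same length in the table, 14.0% held AGGTCA, 33.8% CCAAT, 6.02% CACGTG and 1.05% TCACNCCAC. The windows not shown did not divide the genes by their values. Fads3, which had lower signals on every siAspa array, held 2 matches to CCAAT as Elovl5 did, Fads2 held none of the motifs, and Elovl1, whose groups overlapped, held AGGTCA in 1 of its windows and CCAAT in the other. No window of the 6 genes held TCACNCCAC. These matches are letters only and show no binding.

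The Scd genes lie side by side on chromosome 19. Scd1 and Scd3 had lower signals on every siAspa array, while the groups overlapped for their neighbour Scd4, which is not among the 10 genes (log2 fold change -0.05, adjusted p = 0.917 in limma). The signals of Scd4 lay between 5.21 and 5.53, below the array medians of 5.78 to 5.85. Whether Scd4 was expressed was not tested, so that it is no measure for Scd1 and Scd3. Scd3, a palmitoyl-CoA desaturase best known from mouse skin, read 7.30, 6.99 and 7.72 on the siAspa arrays, against 8.41, 7.81 and 8.36 on the ntc arrays. The gap between the groups was only 0.10, because siAspa replicate 3 and ntc replicate 2 came close to each other. The means were 7.34 ± 0.37 in siAspa cells and 8.20 ± 0.33 in ntc cells (SD, n = 3 each), a 1.81-fold reduction with a 95% interval of 1.25 to 2.64 (adjusted p = 0.217 in limma). Scd1, the main stearoyl-CoA desaturase of fat and liver, read 13.39, 13.28 and 13.41 on the siAspa arrays, against 13.54, 13.50 and 13.60 on the ntc arrays. The siAspa arrays held 89.9%, 82.8% and 91.2% of the geometric mean of the controls. Its log2 fold change was -0.19 (standard error 0.08, 95% interval -0.37 to 0.00, adjusted p = 0.430). The signals of Scd1 were near the top of these arrays, whose highest values lay between 14.2 and 14.3. Probe sequences were not used here, so that signal shared between the closely related Scd transcripts was not tested.

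The Fads genes, also neighbours on chromosome 19, showed small or no differences. Fads2, the delta-6 desaturase that opens the route from linoleate to arachidonate, read 11.65, 11.51 and 11.57 on the siAspa arrays, against 11.75, 11.69 and 11.84 on the ntc arrays. The groups were 0.04 apart without overlap, and the log2 fold change was -0.18 (95% interval -0.38 to 0.01, adjusted p = 0.458 in limma). Fads3, which has been tied to desaturation of sphingoid bases, read 11.06, 10.98 and 11.02 on the siAspa arrays, against 11.39, 11.13 and 11.07 on the ntc arrays. The groups were 0.01 apart, and they overlapped once the arrays had been quantile normalized again, which left 5 of the 9 genes without overlap. Under that scaling every siAspa array lay below every ntc array for 8.39% of all probe sets, and above for 10.5%. The log2 fold change of Fads3 was -0.18 (95% interval -0.42 to 0.07, adjusted p = 0.575), and -0.08 without ntc replicate 1. Fads1, the delta-5 desaturase of the same route, read 11.75, 11.68 and 11.63 on the siAspa arrays, against 11.75, 11.59 and 11.76 on the ntc arrays. The groups overlapped fully, with a log2 fold change of -0.02 and a 95% interval of -0.21 to 0.18 (adjusted p = 0.965).

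**Figure D2:**
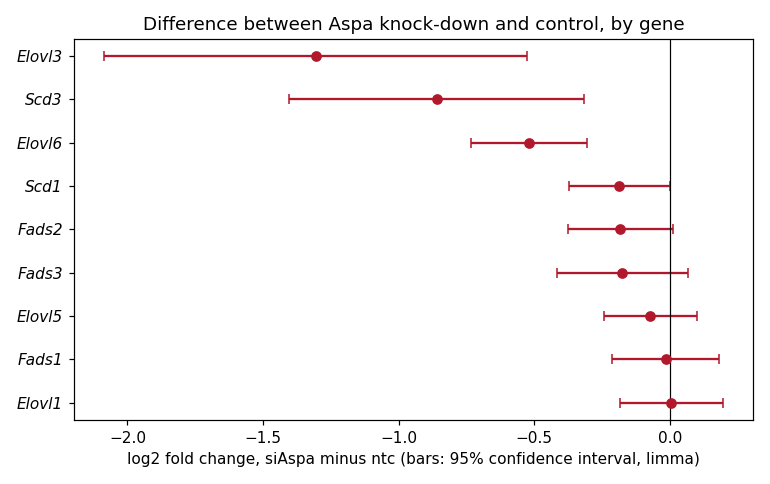
Log2 fold change of each gene (horizontal axis, siAspa minus ntc, n = 3 arrays each) with its 95% confidence interval from limma, ordered from the lowest at the top. The intervals of Elovl3, Scd3 and Elovl6 end at -0.53, -0.32 and -0.30, while that of Scd1 touches 0 and those of the other 5 genes include 0.

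Whether genes of a family differed between the lines by unequal amounts was tested on the difference of their signals within each array, for 10 pairs within the Elovl, Scd and Fads genes. With 3 arrays against 3 the exact two-sided permutation test cannot go below p = 0.1, and 7 pairs reached this value without overlap of the groups (adjusted p = 0.143 over the 10 pairs). Of all pairs among the 22180 genes, 22.6% were without overlap in either direction. The 7 pairs are not independent, since 5 of them held Elovl3 or Elovl6. The signal of Elovl5 minus that of Elovl6 was 0.15, 0.25 and 0.29 on the siAspa arrays, against -0.30, -0.14 and -0.21 on the ntc arrays. The mean difference between the groups was 0.45, against SDs of 0.07 in siAspa cells and 0.08 in ntc cells. Elovl3 minus Elovl6 was -4.24, -4.29 and -4.05 on the siAspa arrays, against -2.69, -3.77 and -3.76 on the ntc arrays. The mean difference was -0.79, and ntc replicate 1 stood more than 1 unit above the other ntc arrays. Scd1 minus Scd3 was 6.09, 6.29 and 5.70 on the siAspa arrays, against 5.13, 5.68 and 5.24 on the ntc arrays, with only 0.01 between the closest arrays of the groups. Fads1 minus Fads2 was 0.10, 0.18 and 0.06 on the siAspa arrays, against 0.01, -0.09 and -0.07 on the ntc arrays, again without overlap. The pairs of Fads3 with Fads1 and with Fads2, and Elovl1 with Elovl5, overlapped between the groups (exact p = 0.3, 0.9 and 0.3).

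Among the ntc arrays replicate 2 was the lowest for 7 of the 9 genes, and among the siAspa arrays replicate 2 was the lowest for 5 of the 9. Over all genes the same arrays were the lowest for 32.2% and 30.0%. In a list of 9 genes drawn up for palmitate and malonyl-CoA synthesis the counts were again 7 and 5. The genes of either list are therefore not independent measurements of the arrays.

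Genes listed for palmitate and malonyl-CoA synthesis had lower signals throughout. The list held Acly, Acaca, Acacb, Fasn, Me1, Slc25a1, Thrsp, Mcat and Oxsm, not all of which make substrate for the elongases. Of these 9 measured genes 1 passed, in the lower direction, and for all 9 every siAspa array lay below every ntc array. The median log2 fold change of that list was -0.43. Acacb, the acetyl-CoA carboxylase of the mitochondrial surface, was the gene that passed (log2 fold change -1.28, adjusted p = 0.049 in limma). It did not pass once array medians were subtracted (adjusted p = 0.051) or with any array left out (adjusted p between 0.108 and 0.213). Acaca, the cytosolic acetyl-CoA carboxylase that makes malonyl-CoA for synthesis and elongation, read 11.00, 10.96 and 11.03 on the siAspa arrays, against 11.67, 11.36 and 11.67 on the ntc arrays (log2 fold change -0.57, adjusted p = 0.110). Fasn, the synthase that releases palmitate, read 12.61, 12.50 and 12.48 on the siAspa arrays, against 13.12, 12.87 and 13.05 on the ntc arrays. Its log2 fold change of -0.48 (95% interval -0.70 to -0.26, adjusted p = 0.119) stood beside -0.52 for Elovl6, the next enzyme of the route. As Elovl6 did, Acaca and Fasn passed in a fit of single-gene probe sets only (adjusted p = 0.026 and 0.031 in limma). Neither passed with any array left out (lowest adjusted p = 0.117 and 0.158).

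None of the listed partners of the elongases and desaturases passed the test. Of 7 genes of the remaining steps of elongation 5 had negative log2 fold changes (45.5% of all genes), and 1 had an unadjusted p under 0.05 in limma. This was Tecr, the enoyl reductase that closes each round (log2 fold change -0.18, adjusted p = 0.424). Of 7 genes for cytochrome b5 and its reductases 5 had negative log2 fold changes as well. Cyb5b, the form of the outer mitochondrial membrane, stood at -0.24 (adjusted p = 0.354) and the reductase Cyb5r1 at 0.22 (adjusted p = 0.320), both as log2 fold changes. The list medians were -0.12 and -0.09. The mean log2 signal of the elongation list lay between 8.76 and 8.83 on the siAspa arrays and between 8.86 and 8.92 on the ntc arrays. For the cytochrome b5 list it lay between 8.82 and 8.84 on the siAspa arrays and between 8.84 and 8.93 on the ntc arrays.

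A list of elongases and desaturases outside the 10 genes did not share the direction. Of its 8 genes none passed, 4 had negative and 4 positive log2 fold changes, and the median was -0.02. The list also held Fa2h, which encodes a fatty acid hydroxylase and is among the negative ones (log2 fold change -0.06, adjusted p = 0.834 in limma). Some of the 8 genes had low signals, which limits what the median shows. Elovl2, Elovl7 and Scd4 had means of 5.69, 5.42 and 5.36 in siAspa cells and 5.74, 5.25 and 5.41 in ntc cells. These lay below the array medians of 5.78 to 5.85, and whether the genes were expressed was not tested. Elovl4, which makes the ultra long chains of retina and skin, was higher on every siAspa array, with 8.50, 8.37 and 8.41, against 8.04, 8.08 and 8.27 on the ntc arrays (log2 fold change 0.30, 95% interval 0.08 to 0.51, adjusted p = 0.270 in limma). Among the acyltransferases that place unsaturated chains into phospholipids, the log2 fold change of Lpcat3 was -0.26 (adjusted p = 0.269). Those of Lpcat2, Mboat2 and Mboat1 were 0.60, 0.47 and 0.40, with adjusted p-values of 0.240, 0.251 and 0.153. None of the 10 measured acyltransferases passed. Before adjustment 3 were lower and 3 higher at p under 0.05 in limma, as were 6.17% and 6.87% of all genes. Of 7 measured acyl-CoA ligases and binding proteins none passed, 4 log2 fold changes were negative and 3 positive. They ran between Acsl5 at -0.47 (adjusted p = 0.169) and the transporter Slc27a1 at 0.26 (adjusted p = 0.400), which was higher on every siAspa array.

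**Figure D3:**
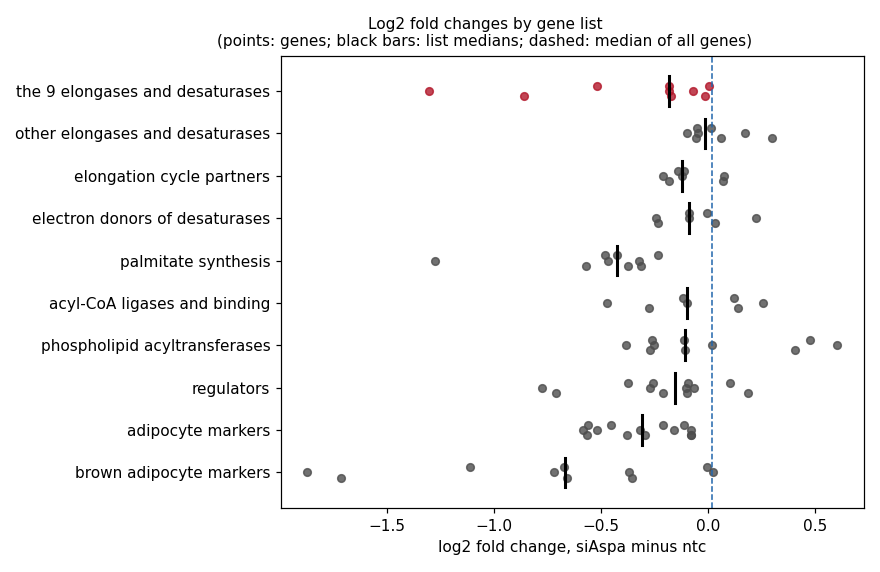
Log2 fold changes (horizontal axis, siAspa minus ntc) of single genes in 10 lists, with list medians as black bars and the median of all genes as a dashed line. The 9 elongases and desaturases (red) have a median of -0.18, between those of the other elongases and desaturases (-0.02) and of palmitate synthesis (-0.43), and 3 of them stand apart at the low end. The list of other elongases and desaturases also holds the hydroxylase gene Fa2h.

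Of 12 measured regulators known to act on elongase and desaturase genes none passed, and 4 had an unadjusted p under 0.05 in limma, all with lower signals. Ppara, the fatty acid receptor that drives oxidation genes, read 6.77, 6.77 and 6.98 on the siAspa arrays, against 7.86, 7.54 and 7.46 on the ntc arrays (log2 fold change -0.78, adjusted p = 0.091). Mlxipl, the carbohydrate response factor ChREBP, read 9.27, 9.10 and 9.03 on the siAspa arrays, against 10.11, 9.85 and 9.58 on the ntc arrays (log2 fold change -0.71, adjusted p = 0.133). Both were lower on every siAspa array. Srebf1, which encodes the sterol-regulated lipogenic factor SREBP-1, stood at -0.27 (95% interval -0.49 to -0.06, adjusted p = 0.320), and Pparg, the adipogenic receptor, at -0.38 (adjusted p = 0.201).

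Markers of the adipocyte state lay in the same direction as Elovl3, Scd3 and Elovl6. Of 14 general adipocyte markers none passed, the median log2 fold change was -0.31 with all 14 negative, and for 9 every siAspa array lay below every ntc array. Their mean log2 signal lay between 10.4 and 10.5 on the siAspa arrays and between 10.7 and 10.8 on the ntc arrays. Of 10 measured brown adipocyte markers 2 passed, Ucp1 and Otop1, both lower in siAspa cells (log2 fold changes -1.72 and -1.11, adjusted p = 0.034 for each in limma). With any array left out neither passed (adjusted p between 0.081 and 0.171 for Ucp1 and between 0.092 and 0.185 for Otop1). The median of the list was -0.67. The mean of this list lay between 8.38 and 8.68 on the siAspa arrays and between 9.16 and 9.35 on the ntc arrays. Of 11 markers of preadipocytes and fibroblasts none passed, 8 were positive and 5 were higher on every siAspa array, with a median of 0.11. Their mean lay between 10.15 and 10.28 on the siAspa arrays and between 10.07 and 10.16 on the ntc arrays, so that the groups overlapped. Pdgfra, 1 of these markers, was lower on every siAspa array (log2 fold change -0.27, adjusted p = 0.320 in limma). Of 8 macrophage markers none passed, with a median of 0.00 and means between 5.45 and 5.52 on the siAspa arrays and between 5.41 and 5.47 on the ntc arrays. In these bulk samples fewer adipocytes and less mRNA per adipocyte cannot be told apart, and the part of the markers in the differences of the elongases and desaturases was not tested.

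**Figure D4:**
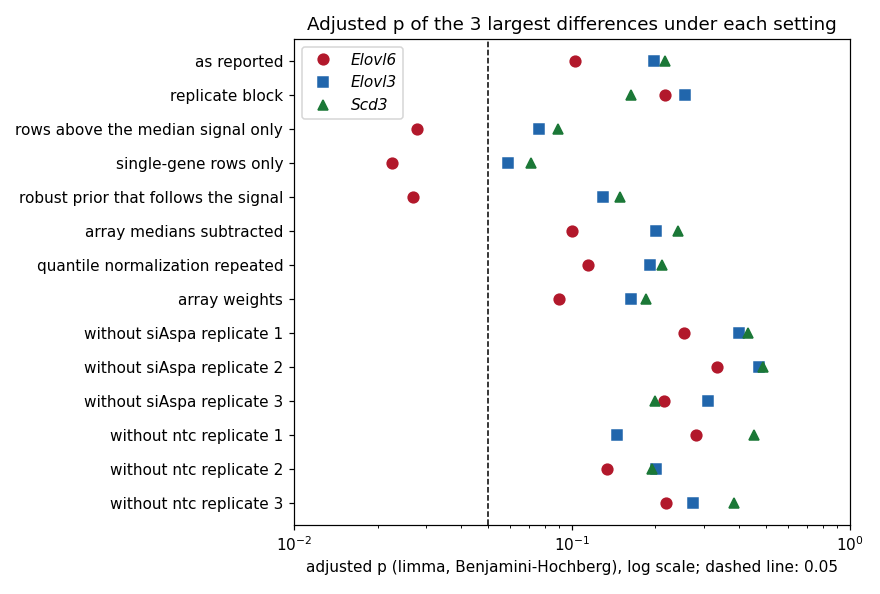
Adjusted p from limma (horizontal axis, log scale, with the threshold of 0.05 dashed) of Elovl6, Elovl3 and Scd3 under 14 settings of the analysis. Elovl6 lies below the threshold under 3 of them, between 0.023 and 0.028, while Elovl3 and Scd3 lie above it under all 14, with lowest values of 0.059 and 0.072.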

How the data were processed

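RNA of differentiated iBACs (200 ng per array, harvested on day 7) was hybridized by the authors to Affymetrix Mouse Gene 2.0 ST arrays, 3 for siAspa and 3 for ntc. The deposited values are log2 signals, made by the authors with RMA in CarmaWeb. For CarmaWeb no version, and for the probe sets no definition, is given in the sources used here. The median of an array lay between 5.78 and 5.85. Of 41345 rows, 23521 carried a single gene, 1820 several and 16004 none, and symbols were updated through a RefSeq table (GRCm38.p6), which matched 23328. A gene with several rows stood with the brightest. The fit used limma 3.58.1 in R 4.3.3 on all rows, two-sided, without a block, with an adjusted p threshold of 0.05, as in the study's methods. It called 30 rows lower and 48 higher, while the study reported larger counts, with more genes lower than higher. On simulated data the fit recovered 30% of 50 rows changed 1.5-fold, 64% of 50 changed 2-fold and 88% of 50 changed 3-fold. A gene that did not pass can therefore still have changed by such amounts. Precision is limited by there being 3 arrays a group, and the values carry no detection call. The members and gene lists were chosen with earlier results of these data known. Named with values are all members, Aspa, Ucp1 and Fasn, and in each list the called genes and up to 3 with the largest change. Some genes under this rule are not named above, among them Cidea, Pnpla2, Cidec and Lep (log2 fold changes -1.87, -0.59, -0.57 and -0.56). Cd34, Cd68 and Dpp4 (0.38, 0.34 and 0.31) were also left out. Srebf1, Lpcat3, Elovl2, Scd4 and Fa2h fall outside this rule and were chosen after their values were seen, as was Ptprc, named for its change of sign. Of 12 planned family pairs, 10 could be formed without Scd2. The alternatives were a replicate block, brighter rows only, single-gene rows only, a robust prior that follows the signal, 2 other scalings, array weights, 1.5-fold in addition, and leaving out each array.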

Additional observations from a re-analysis of the deposited data

How the results depend on the processing

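All 9 genes kept their direction under each alternative run other than leaving out an array, and 7 of them, all but Elovl1 and Fads1, also then. Leaving out an array gave log2 fold changes from -0.045 to 0.039 for Elovl1, from -0.071 to 0.014 for Fads1 and from -0.014 to 0.25 for the macrophage marker Ptprc. Among the 9 genes Elovl6 was the one called in addition to the main result, which made 1 of the 9 lower with brighter rows only, with single-gene rows only and with the robust prior. Elovl6 was not alone in this among the genes named above. With single-gene rows only Acaca, Fasn, Ppara and Mlxipl were called lower (adjusted p = 0.026, 0.031, 0.016 and 0.033 in limma). Mboat1 was called higher in that fit (adjusted p = 0.049). None of them passed with any array left out. Called lower and higher were 394 and 253 of 20672 rows with brighter rows only, and 329 and 251 of 23521 with single-gene rows only. With the robust prior they were 236 and 152 of 41345, against 30 and 48 in the main fit. Leaving out an array left 0 to 1 called in each direction, while 1960 to 2589 were lower and 1633 to 2193 higher at an unadjusted p under 0.05. Over all rows, arrays of the same number did not deviate together (r = 0.00, 0.02 and 0.00). A correlation over all rows cannot decide whether arrays of the same number were paired for some genes. With the number as a block the standard error was 0.12 against 0.23 for Scd3 and 0.19 against 0.17 for Aspa. With the number as a replicate block 0 rows were called lower and 0 higher in limma (2504 and 1983 at an unadjusted p under 0.05), and siAspa replicate 3 did not correlate best with its own number. The median log2 fold change of the 9 genes lay between -0.21 and -0.15 under all alternatives. Among the called genes named above, Acacb did not pass after subtraction of array medians (adjusted p = 0.051), and Aspa, Ucp1, Otop1 and Acacb did not pass with the block or with any array left out.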
